A study of Mus musculus with 11 samples.

Results

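The 10 genes described here encode AP-1 subunits and other immediate early proteins of mouse naive extra-embryonic endoderm (nEnd), a culture of primitive endoderm-like cells grown on fibroblast feeders in medium with Activin A, CHIR99021 and LIF. They are Fos, Fosb, Fosl1, Fosl2, Jun, Junb, Jund, Egr1, Atf3 and Ier2, taken by name as a fixed list from 48952 genes of the bulk count table and 32285 genes of the single-cell matrices. All 10 were found in both. Bulk RNA-seq covered the OCT4-mCherry nEnd line, untreated, in which a fluorescent reporter reads Oct4 expression, sorted into Pdgfra+ cells, double-positive (DP) cells carrying both PDGFRA and OCT4-mCherry, and Oct4+ cells, with 3 libraries each. Single-cell RNA-seq covered 1 library of untreated cells (-4OHT) and 1 library treated with 4-hydroxytamoxifen (+4OHT) from the EPUc line, labelled Oct4-LOF, in which the drug induces loss of Oct4; both conditions share the engineered alleles. Each experiment used 1 line. The study calls the bulk libraries biological replicates, but the labels do not say how cultures were separated, and p-values measure the spread between these libraries. Both experiments used Accutase to bring the cells into suspension before sorting, and every library passed through that step.

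AP-1 is a dimer of basic leucine zipper proteins. Jun proteins pair with each other or with Fos proteins and bind a short palindromic site, whereas Fos proteins need a Jun partner. Most of these genes are transcribed within minutes of growth factor signalling, and also after tissue dissociation, heat or handling, because their promoters are read by factors that are already present and are switched on by kinases. JUND and the activating transcription factor ATF3 represent other ends of the family: Jund is expressed at steady state in many cells, and Atf3 is also a target of the integrated stress response. EGR1 is a zinc finger factor and IER2 a short nuclear protein, and both belong to the early response without being AP-1 subunits.

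On GRCm38 (GENCODE annotation) Junb (chr8:84974484-84978718), Ier2 (chr8:84661331-84662852) and Jund (chr8:70698949-70700616) lie on 1 chromosome, and the other genes on separate ones, among them Fos (chr12:85473890-85477273), Jun (chr4:95049034-95052222), Fosl2 (chr5:32135801-32157842) and Atf3 (chr1:191170296-191218039). RefSeq promoters (GRCm38.p6) were held for 7 of the 10 genes, with no entry matched for Fosl1, Egr1 and Ier2. The promoters of 3 are printed here, since Jun and Atf3 carried large differences between the sorted fractions and Fos is the best known member that did not pass the test. The 250 bases before the transcription start that RefSeq gives are printed 5′ to 3′ on the gene's strand. Capitals mark the motifs TGACTCA (AP-1 site), TGACGTCA (CRE), TGACG (the CRE core, also contained in the full CRE) and TGACATCA, each on both strands, the CArG box by name on both strands, and TATAAA on the sense strand.
Fos, chr12:85473640-85473889, plus strand: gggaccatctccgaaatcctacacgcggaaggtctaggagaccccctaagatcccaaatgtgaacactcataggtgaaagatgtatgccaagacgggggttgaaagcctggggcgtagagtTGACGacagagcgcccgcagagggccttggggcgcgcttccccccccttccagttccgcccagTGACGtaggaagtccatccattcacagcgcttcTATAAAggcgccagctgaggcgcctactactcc
Jun, chr4:95052223-95052472, minus strand: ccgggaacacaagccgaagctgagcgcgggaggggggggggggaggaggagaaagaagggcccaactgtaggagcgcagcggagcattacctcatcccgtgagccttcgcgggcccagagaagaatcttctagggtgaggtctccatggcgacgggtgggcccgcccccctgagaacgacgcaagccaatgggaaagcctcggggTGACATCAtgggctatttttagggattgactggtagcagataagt
Atf3, chr1:191183334-191183583, minus strand: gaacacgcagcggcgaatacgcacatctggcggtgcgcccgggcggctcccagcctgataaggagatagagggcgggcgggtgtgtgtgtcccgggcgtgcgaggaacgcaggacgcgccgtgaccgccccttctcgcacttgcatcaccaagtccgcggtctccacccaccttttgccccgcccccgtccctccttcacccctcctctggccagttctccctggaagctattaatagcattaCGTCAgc
In these windows Fos held 2 CRE cores, the nearer starting 66 bases before the start, and a TATAAA starting 33 bases before it. Jun held TGACATCA from base 45 to base 38 before the start, and Atf3 held 1 CRE core, in the reverse orientation, from base 7 to base 3. Fosb and Junb each held 1 CRE core, and Fosl2 and Jund held none of the motifs in this window. For Fos and Jun the RefSeq start is the first base of the GENCODE gene, whereas the Atf3 and Fosl2 windows lie inside the GENCODE gene and the Jund window ends upstream of it, so that these 3 belong to other starts than the gene bounds given here. Among 32851 promoter windows of the same length, 17.8% held the CRE core, 2.93% TGACATCA, 7.59% TATAAA, 4.46% the AP-1 site, 1.55% the CRE and 1.47% a CArG box.

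Each bulk library held between 8019631 and 11642571 reads on genes, and 14185 genes were kept for testing. The sort was visible in the marker lists. Summed endoderm markers (11 genes) lay, in CPM (read counts relative to the TMM-scaled library total), at 50653 to 64854 in Pdgfra+, 33861 to 54170 in DP and 390 to 827 in Oct4+, and the targeted reporter gene Pou5f1 (Oct4) rose from a mean of 17.5 CPM in Pdgfra+ through 229 in DP to 981 in Oct4+. Summed fibroblast markers (12 genes), for the feeder cell type, were 4.28 to 17.1 CPM in Pdgfra+, 8.10 to 10.7 CPM in DP, and 170, 35.8 and 20.7 CPM in Oct4+ replicates 1, 2 and 3, with Lum and Prrx1 under 1 CPM in every library. In sorted bulk RNA, fewer cells of a type and less RNA per cell cannot be told apart.

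Of the 9 genes tested, 7 differed between Oct4+ and Pdgfra+ cells, where 63.2% of all genes tested also did. Of these, 6 were lower in Oct4+ (31.5% of all genes were lower) and only Ier2, among these 9 genes, was higher (31.8% of all genes were higher). A gene was called at an adjusted p under 0.05 in edgeR's quasi-likelihood test with Benjamini-Hochberg adjustment over all genes, and Fosl1 had too few reads to enter it. Since most genes were called, the values that follow describe size and direction. The median log2 fold change over the 9 genes was -1.62, against 0.01 over all genes tested.

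**Figure D1:**
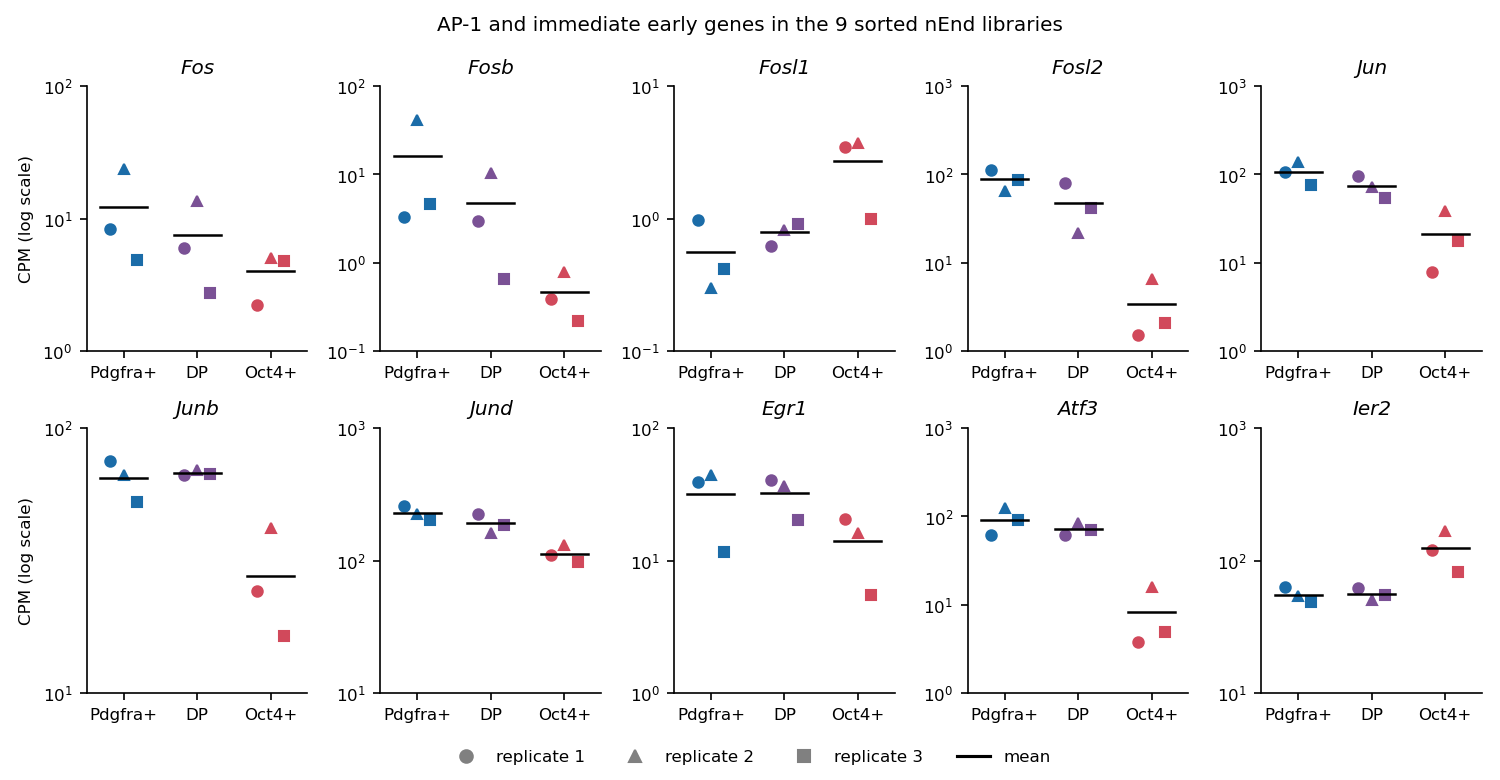
CPM (log scale) of the 10 genes in the 9 bulk libraries, with 1 symbol per replicate number and a line at the group mean. In Oct4+ the 3 libraries lie below all Pdgfra+ libraries for Fosb, Fosl2, Jun, Junb, Jund and Atf3 and above them for Fosl1 and Ier2.

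Among the Fos family, Fosl2 (Fra-2, a late-acting subunit without a transactivation domain of the Fos type) separated the fractions furthest for its spread. It was at 113, 64.3 and 87.0 CPM in Pdgfra+ replicates 1, 2 and 3, at 80.7, 21.8 and 41.4 CPM in DP, and at 1.55, 6.61 and 2.11 CPM in Oct4+. All Oct4+ libraries lay below all others, and DP overlapped Pdgfra+. In Oct4+ Fosl2 was 26.0-fold lower than in Pdgfra+ (log2 fold change -4.70 ± 0.62 SE, n = 3 a group, edgeR adjusted p = 1.18e-04).
Fosb followed, at -5.10 ± 1.28 on the log2 scale (SE; adjusted p = 0.00568 in edgeR). Its values were 3.30, 41.2 and 4.59 CPM in Pdgfra+, 2.99, 10.5 and 0.65 CPM in DP and 0.39, 0.79 and 0.22 CPM in Oct4+, on 5, 8 and 2 reads in the last. The Oct4+ libraries lay below every Pdgfra+ library, but the size of the difference rested on Pdgfra+ replicate 2, without which it was -3.07 (edgeR adjusted p = 0.0220).
Fos itself was at 8.42, 23.5 and 4.91 CPM in Pdgfra+, 5.98, 13.7 and 2.74 CPM in DP and 2.25, 5.03 and 4.77 CPM in Oct4+. The groups overlapped and the difference of -1.62 ± 0.68 (SE) was not called (edgeR adjusted p = 0.0590). It was called in 8 of 17 alternative fits, and fell to -0.76 without Pdgfra+ replicate 2.
Fosl1 (Fra-1), the other short Fos-type subunit, went the other way. It lay at 0.98, 0.30 and 0.42 CPM in Pdgfra+, 0.62, 0.83 and 0.91 CPM in DP and 3.49, 3.75 and 0.998 CPM in Oct4+, on 45, 38 and 9 reads there, so that the Oct4+ libraries did not overlap the others. Without a filter on low counts it was 4.85-fold higher in Oct4+ than in Pdgfra+ (log2 fold change 2.28 ± 0.63 SE, edgeR adjusted p = 0.00349). The fibroblast marker sum was also highest in Oct4+, and its part in the Fosl1 level was not tested.

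The Jun family fell together, with sizes that decreased from Jun to Jund. Jun, the main partner of Fos proteins, was at 107, 139 and 75.4 CPM in Pdgfra+, 94.9, 72.5 and 53.9 CPM in DP and 7.83, 38.7 and 17.6 CPM in Oct4+. The Oct4+ libraries stayed below both other groups, and the difference from Pdgfra+ was -2.33 ± 0.49 (log2, SE; edgeR adjusted p = 0.00206), or -3.09 without Oct4+ replicate 2, the highest of its group.
Junb, often a weaker activator than JUN, ran at 74.9, 66.7 and 52.6 CPM in Pdgfra+, 66.4, 69.7 and 67.3 CPM in DP and 24.3, 41.9 and 16.5 CPM in Oct4+. It was 2.35-fold lower in Oct4+ than in Pdgfra+ (edgeR adjusted p = 0.00384).
Jund varied least. It stood at 258, 223 and 204 CPM in Pdgfra+, 225, 162 and 187 CPM in DP and 110, 132 and 98.1 CPM in Oct4+, a 2.02-fold difference between Oct4+ and Pdgfra+ (log2 fold change -1.01 ± 0.17 SE, edgeR adjusted p = 4.72e-04).

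Atf3, which can pair with JUN and repress, behaved like Fosl2 in its order of groups: 62.4, 124 and 90.7 CPM in Pdgfra+, 61.1, 85.0 and 70.6 CPM in DP, and 3.798, 15.9 and 4.99 CPM in Oct4+. The difference of Oct4+ from Pdgfra+ was -3.50 ± 0.49 (log2, SE; edgeR adjusted p = 1.75e-04), an 11.3-fold lower level, and -4.41 without Oct4+ replicate 2.
Egr1, a target of serum response factor, was at 39.4, 44.2 and 11.6 CPM in Pdgfra+, 40.4, 36.3 and 20.1 CPM in DP and 20.7, 16.2 and 5.54 CPM in Oct4+. Replicate 3 was lowest in all 3 groups, the groups overlapped, and the difference of -1.16 ± 0.55 (SE) was not called (edgeR adjusted p = 0.0872).
Ier2 was the exception among the genes tested. It lay at 63.5, 54.2 and 48.7 CPM in Pdgfra+, 62.6, 51.0 and 55.0 CPM in DP and 120, 168 and 82.9 CPM in Oct4+, 2.23-fold higher in Oct4+ than in Pdgfra+ without overlap (edgeR adjusted p = 0.00158). Of the 10 genes, 8 had Oct4+ and Pdgfra+ libraries that did not overlap, a pattern that 69.3% of the genes tested share.

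The same order appeared between DP and Oct4+, which share the Oct4+ libraries with the comparison above. Of the 9 genes tested, 7 were called, where 56.2% of all genes were. Of these 7, 6 were higher in DP (28.3% of genes), namely Fosl2 (log2 fold change 3.82 ± 0.60 SE), Fosb (3.31 ± 1.27), Atf3 (3.14 ± 0.49), Jun (1.79 ± 0.48), Junb (1.30 ± 0.29) and Jund (0.76 ± 0.17), and Ier2 was lower (-1.14 ± 0.23; 27.9% of genes were lower). Their edgeR adjusted p-values ran from 4.17e-04 for Atf3 to 0.0471 for Fosb. Fosb was the least secure of these calls: its DP and Oct4+ libraries overlapped, and leaving out 1 library ended the call in 5 of 9 fits, with an adjusted p of 0.225 without DP replicate 2. Fos (0.91 ± 0.68) and Egr1 (1.18 ± 0.55) were not called, at edgeR adjusted p-values of 0.279 and 0.0887. Libraries did not overlap for 7 of the 10 genes, against 62.6% of the genes tested.

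DP and Pdgfra+ cells, which differ in OCT4-mCherry within the PDGFRA-positive gate, gave no called gene among the 9 tested, by edgeR (6.87% of all genes called) or by DESeq2 (12.4%), and none at an unadjusted p under 0.05 with either tool. Both fits had group as their only term and did not use the replicate numbers. None of the 10 genes had libraries that did not overlap, against 34.2% of the genes tested. The 95% intervals of the log2 fold change stayed within 2-fold for Ier2 (0.02, -0.50 to 0.54), Junb (0.07, -0.56 to 0.69) and Jund (-0.26, -0.63 to 0.11). Those of Fosb (-1.79, -4.09 to 0.51), Fosl2 (-0.88, -2.01 to 0.26), Fos (-0.71, -2.19 to 0.76), Jun (-0.54, -1.57 to 0.49), Atf3 (-0.36, -1.32 to 0.61) and Egr1 (0.03, -1.16 to 1.22) hold differences of more than 2-fold. The replicate numbers of these 6 libraries deviated together and were taken as pairs. Fos, Fosb, Fosl2, Jun, Jund and Atf3, 6 of the 10 genes, had a lower CPM in DP than in Pdgfra+ in all 3 pairs, as did 30.7% of the genes tested. With a replicate block on these libraries, Fosl2 was called lower in DP (log2 fold change -1.01, edgeR adjusted p = 0.0247), while the share of all genes called in that fit was 20.2%. In the same fit Fosb (-1.56), Jun (-0.52) and Fos (-0.68) were not called, at edgeR adjusted p-values of 0.0547, 0.0612 and 0.0617.

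**Figure D2:**
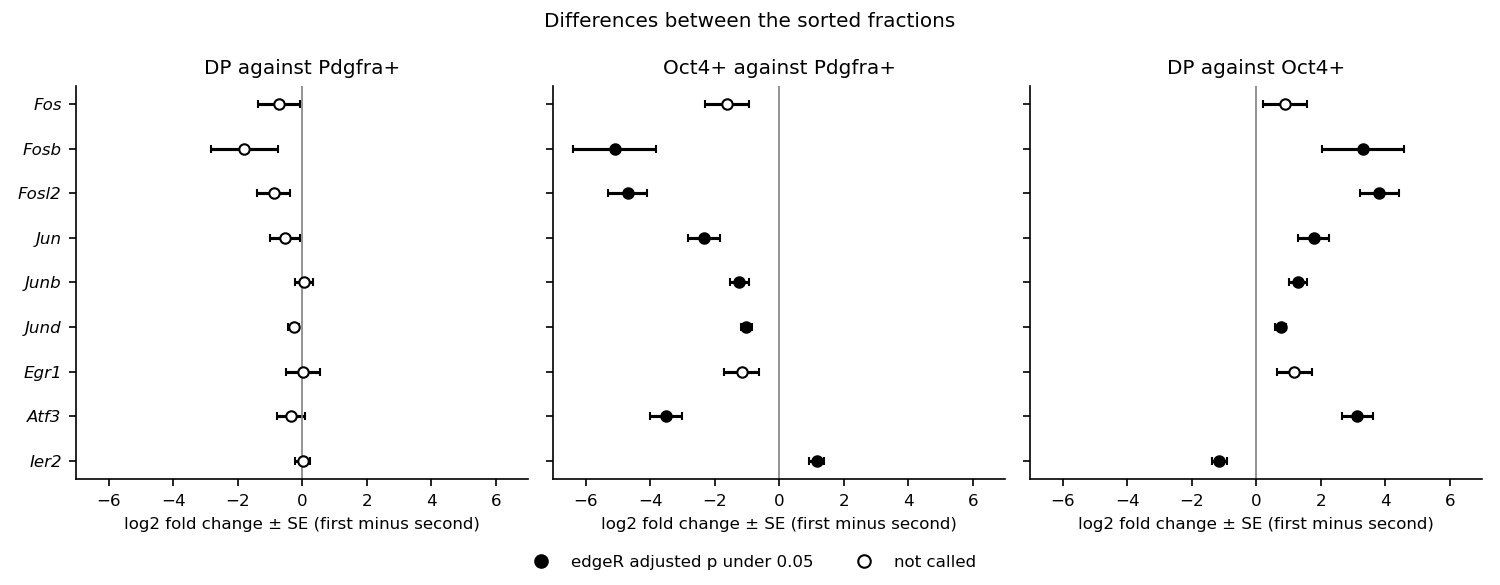
Log2 fold changes (first group minus second) of the 9 genes tested with bars of ± 1 SE from edgeR's quasi-likelihood fit on all 9 libraries, with group as its only term. Filled points passed an adjusted p of 0.05: none between DP and Pdgfra+, and the same 7 genes in both comparisons with Oct4+, which share their Oct4+ libraries.

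Per kilobase of exon, the scale on which genes can be compared, Jund had the highest level in Pdgfra+ (137 ± 16.5 CPM per kb, SD, n = 3) and in DP (115 ± 19.1), and Ier2 in Oct4+ (81.4 ± 28.1), followed there by Jund (67.9 ± 10.2), whose libraries overlapped those of Ier2. In Pdgfra+ the next levels were Atf3 (42.9 ± 14.3), Ier2 (36.4 ± 4.89), Jun (33.6 ± 9.91) and Junb (28.1 ± 4.91), neighbours that do not differ beyond their spread. Fosl2 (9.11 ± 2.54), Egr1 (7.08 ± 3.93), Fos (5.22 ± 4.20), Fosb (2.62 ± 3.45) and Fosl1 (0.28 ± 0.18) lay lower. The mean of every Fos-type subunit lay below that of Junb in each fraction.

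The replicates carried a pattern of their own. Fos, Fosb and Atf3 were each highest in replicate 2 of all 3 groups, as were 6.14% of the genes tested. Replicate 2 exceeded the mean of the other libraries of its group 3.53-fold for Fos in Pdgfra+, 3.14-fold in DP and 1.43-fold in Oct4+, and 10.5-, 5.76- and 2.59-fold for Fosb. Tested as a term with the groups in the model, a step added after the pattern was seen, replicate number gave unadjusted p-values of 0.0198 for Fos, 7.28e-04 for Fosb, 0.0102 for Atf3 and 4.46e-04 for Egr1 in edgeR, the last through its low replicate 3, and none of them passed adjustment over all genes (edgeR adjusted p of 0.432, 0.295, 0.368 and 0.263; 0 of 14185 genes, 0%, passed). The sorted fractions with one number are not stated to share a culture or a day. Without replicate 2 of every group the counts of called genes were 0 between DP and Pdgfra+, 7 between Oct4+ and Pdgfra+ and 7 between DP and Oct4+, as with all libraries. The shares of all genes called in that fit were 0.0208%, 56% and 49.7%, against 6.87%, 63.2% and 56.2% with all libraries. With so few genes called between DP and Pdgfra+, the 0 there says little about these genes.
Several genes outside the list tracked this spread. After subtracting group means, the log2 CPM values most like Fos over the 9 libraries were those of Arhgef26 (r = 0.996), Tspan13 (0.984) and Zfp365 (0.983); for Jun they were Sri (0.982), Apaf1 (0.980) and Slco3a1 (0.978), and for Egr1 Oxsr1 (0.992), Abcc10 (0.984) and Coro2a (0.966), out of 9597 genes compared. These are the highest of many correlations over few libraries and are given as a description. Among the genes themselves, Fos lay closest to Fosb (0.875), Fosl2 to Jund (0.848) and Junb to Ier2 (0.938) on the same measure.

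The other lists of the pathway are set beside the shares of all genes, 31.8% higher and 31.5% lower in Oct4+ than in Pdgfra+. Of 33 further immediate early genes, 29 were tested, with 9 higher and 13 lower in Oct4+ than in Pdgfra+ and a median log2 fold change of -0.04. Nr4a3, an early nuclear receptor, had the lowest log2 fold change of the 29 (log2 fold change -6.42 ± 0.98 SE, edgeR adjusted p = 2.99e-04), and Arc and the kinase gene Pim1 rose (3.76 ± 0.38 and 3.71 ± 0.34). Between DP and Pdgfra+ the connective tissue growth factor gene Ccn2 was lower in DP (-2.41 ± 0.43, edgeR adjusted p = 0.0183), Srf, the serum response factor, was lower (-0.79 ± 0.13), and Zfp36l1, whose product binds AU-rich messages, was higher (0.92 ± 0.21). Of 11 dimer partners and competitors tested, 4 were higher and 5 lower in Oct4+ than in Pdgfra+, including the small Maf protein gene Mafk (-3.05 ± 0.22), Jdp2, the Jun dimerization protein that represses AP-1 (-2.73 ± 0.37), and Maf (-2.47 ± 0.64), while 0 were called between DP and Pdgfra+. Among 20 upstream kinases and SRF cofactors, 2 were higher and 7 lower in Oct4+ than in Pdgfra+, with Elk3 (1.25 ± 0.42) and Fbxw7 (1.23 ± 0.17) higher and Mapk3 (ERK1) lower at a log2 fold change of -1.199. Of 17 AP-1 target genes tested, 5 were higher and 7 lower: Mmp9 (5.96 ± 0.93) was higher in Oct4+, and Cd44 (-5.27 ± 0.85) and Krt18 (-4.30 ± 0.48) were lower.
Heat shock and dissociation genes, 18 tested, can be raised by handling, as Fos and Jun can be. In this list 12 were higher and 2 lower in Oct4+ than in Pdgfra+ (median log2 fold change 0.64), against 31.8% and 31.5% of all genes. Cebpd (2.93 ± 0.54), Hspb1 (2.502 ± 0.31) and Hspa1a (2.33 ± 0.48) had the largest called changes of the list. Their summed level was 8523, 9915 and 8833 CPM in Pdgfra+ replicates 1, 2 and 3 and 14422, 13920 and 14212 CPM in Oct4+. Integrated stress response genes, 11 tested, gave 3 higher and 3 lower, including Vldlr (-3.75 ± 0.69) and the asparagine synthetase gene Asns (2.91 ± 0.30). The part of dissociation in the levels of the 10 genes was not tested, and no library without dissociation was analysed here.

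The single-cell libraries held 6896 (-4OHT) and 7283 (+4OHT) cell barcodes, of which 5113 and 6261 remained after filters, and 21 barcodes occurred in both. Cells were grouped without using the 10 genes. Clusters 1 (led by Gkn2 and Gkn1) and 2 (led by Car4 and Pitx1) carried the endoderm markers and are called endoderm-like, and clusters 3 and 4, in which 11 and 8 of the 11 epiblast markers were at least 2-fold up, epiblast-like. The endoderm-like class held 594 cells in -4OHT, most of them in cluster 2 (398), and 6009 in +4OHT, most of them in cluster 1 (3755). Epiblast-like cells numbered 3641 in -4OHT and 0 in +4OHT. Cluster 5 (led by Amn and Cubn; 711 cells in -4OHT, 16 in +4OHT) was left unnamed, since in -4OHT its cells held both endoderm markers (12530 CPM summed) and epiblast markers (3512 CPM). Pou5f1 (Oct4), the targeted gene, was at 48.5 CPM in epiblast-like cells and 3.43 CPM in endoderm-like cells of -4OHT, and at 1.72 CPM in endoderm-like cells of +4OHT. The doublet caller marked 153 cells in -4OHT but only 3 in +4OHT, and the marked cells were removed. Whether it missed doublets in +4OHT was not tested, so doublets may remain there.

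Within the -4OHT library the endoderm-like and epiblast-like cells stood in the order of the sorted fractions for most of the genes, in CPM of summed unique molecular identifiers (UMIs) with exact Poisson 95% intervals for counting error only. Jun was at 133 CPM (125 to 141) in endoderm-like and 4.96 CPM (4.46 to 5.50) in epiblast-like cells. Atf3 stood at 96.4 CPM (89.6 to 104) against 3.91 CPM (3.47 to 4.39), and Fosl2 at 13.2 CPM (10.7 to 16.0) against 0.48 CPM (0.33 to 0.67). Fos was at 8.43 CPM (6.49 to 10.8) against 1.43 CPM (1.16 to 1.73), Fosb at 6.19 CPM against 0.30 CPM, Junb at 36.6 CPM against 11.05 CPM and Jund at 306 CPM against 133 CPM. All 7 intervals were apart, the highest level being in the endoderm-like cells. The 711 cells of the unnamed cluster 5 are in neither class. There Jun (26.2 CPM), Atf3 (44.4 CPM), Fosl2 (3.96 CPM) and Jund (168 CPM) lay between the 2 classes. Fos (1.52 CPM) was near the epiblast-like level, Fosb was at 0.08 CPM on 1 UMI, and Junb (37.3 CPM) was near the endoderm-like level.
Ier2 and Fosl1 were again higher on the epiblast side, at 89.9 CPM (87.7 to 92.1) against 40.4 CPM (36.05 to 45.2) for Ier2 and 1.90 CPM against 0.26 CPM for Fosl1, the latter on 2 UMIs. Egr1 differed from the bulk order, at 27.5 CPM (26.3 to 28.8) in epiblast-like and 11.5 CPM (9.18 to 14.1) in endoderm-like cells. Classes were set from the same cells' other genes, in 1 library, so these are descriptions without a test.
As shares of cells with a UMI after thinning every cell to 5000 UMIs, Jun was detected in 40.4% of endoderm-like and 2.20% of epiblast-like -4OHT cells (60.1% and 6.92% unthinned), Atf3 in 30.0% and 1.52% (50.5% and 6.32%) and Fos in 4.09% and 0.58% (6.73% and 2.44%). Median depths were 11962.5 and 18971 UMIs in the endoderm-like and epiblast-like classes, and the part of free RNA in these shares was not tested.

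**Figure D3:**
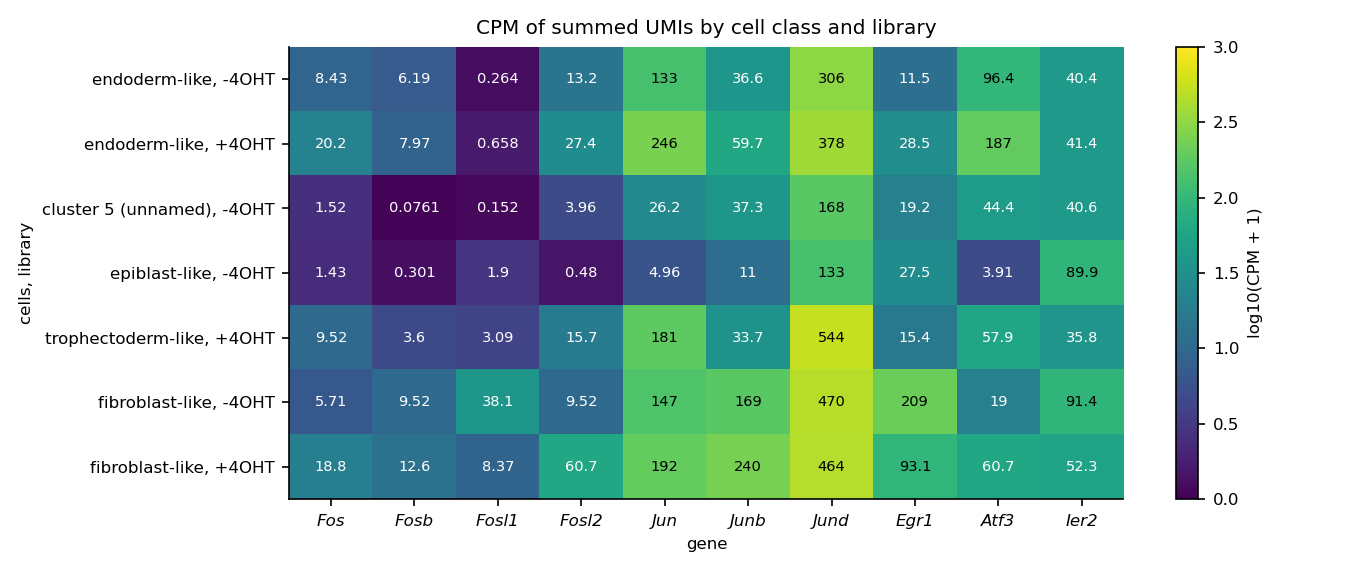
CPM of summed UMIs for the 10 genes by cell class and library, coloured by log10(CPM + 1). Jun, Atf3 and Fosl2 are lowest in the epiblast-like row, and Ier2 is highest in that row among the rows of over 100 cells. Jun is high in the endoderm-like, trophectoderm-like and fibroblast-like rows, and Fosl2 is highest in the fibroblast-like row of +4OHT. Egr1 and Junb are high in the fibroblast-like rows of 19 and 31 cells.

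Fibroblast-like cells, few in both libraries, expressed several of the genes at high levels. In the 19 fibroblast-like cells of -4OHT, Egr1 was at 209 CPM, Junb at 169 CPM, Jund at 470 CPM and Fosl1 at 38.1 CPM, and in the 31 of +4OHT at 93.1, 240, 464 and 8.37 CPM. In endoderm-like cells the summed fibroblast markers were 6.85 CPM (-4OHT) and 9.14 CPM (+4OHT), against 4276 and 11075 CPM in the fibroblast-like cells.

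With 4OHT, 6 of the 10 genes were higher in endoderm-like cells by more than 1.5-fold with a counting interval that leaves out 1, and none was lower past it. Among 6668 genes with at least 20 CPM in 1 library, 9.33% passed in either direction and 7.02% were higher. Fos, Fosl2 and Egr1 reached 20 CPM only in +4OHT, so they entered this count through the library where they were higher. Jun, Junb and Atf3 were above 20 CPM in both. There is 1 library a condition, so the difference has no replicate check, and library and treatment cannot be told apart. Egr1 went from 11.5 to 28.5 CPM (ratio 2.48, 2.00 to 3.11), Fos from 8.43 to 20.2 CPM (2.40, 1.87 to 3.13) and Fosl2 from 13.2 to 27.4 CPM (2.08, 1.70 to 2.57). Atf3 went from 96.4 to 187 CPM (1.94, 1.801 to 2.09), Jun from 133 to 246 CPM (1.85, 1.74 to 1.98) and Junb from 36.6 to 59.7 CPM (1.63, 1.44 to 1.85). Jund stayed under the threshold at 1.23 (1.18 to 1.29), and Ier2 was nearly level at 40.4 and 41.4 CPM (1.02, 0.91 to 1.16). Fosb (1.29, 0.96 to 1.77) and Fosl1 were under 20 CPM in both libraries. Keeping only cells with at least 2500 genes and at most 5% mitochondrial UMIs again left 6 genes past the threshold, with ratios of 8.29 for Fos and 7.71 for Egr1. The median mitochondrial share of the -4OHT cells, 5.89%, lay above that cap. Before the filter they held 64 Fos and 87 Egr1 UMIs, so these ratios rest on a smaller set of -4OHT cells. The share of all genes past the threshold under this filter is not given here. Adding the unnamed cluster 5, which holds more -4OHT cells than the endoderm-like class, gave 7 genes, with Jund (1.73) now past the threshold. The ratios were then 4.99 for Fos, 3.44 for Fosb, 3.77 for Jun, 3.74 for Fosl2, 2.94 for Atf3 and 1.74 for Egr1. The share of all genes past the threshold with cluster 5 added is not given here either, so the 7 has no background beside it. In cluster 5 of -4OHT alone, Jun was at 26.2 CPM, Atf3 at 44.4 CPM and Fos at 1.52 CPM.
The count depended on which endoderm-like cells were compared, since the cells of -4OHT were mostly in cluster 2 and those of +4OHT mostly in cluster 1. In both libraries the level of each gene other than Fosl1 was higher in cluster 1 than in cluster 2. Within cluster 1 (196 and 3755 cells) 3 genes passed, Fosl2 (1.74), Egr1 (1.60) and Atf3 (1.56), where 7.67% of genes did, and Jun was at 1.43 and Fos at 1.47. Within cluster 2 (398 and 2254 cells) 3 passed, Fosl2 (2.04), Jun (1.78) and Atf3 (1.91), where 9.11% did. Fos (4.40 and 12.5 CPM, ratio 2.83) and Egr1 (6.05 and 15.6 CPM, ratio 2.58) were below 20 CPM in cluster 2 and did not enter the count. Fosl2 entered it in both clusters only through +4OHT, since in -4OHT it was at 18.3 CPM in cluster 1 and 11.2 CPM in cluster 2. At a finer clustering resolution of 0.6, an endoderm-like cluster led by Igfbp1 and Cpm held 177 cells of -4OHT and 4 of +4OHT. Another, led by Gkn2 and Gkn1, held 25 and 1270. A comparison within cluster 1 or 2 therefore need not compare like cells, and the part of this make-up in the ratios was not tested.

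**Figure D4:**
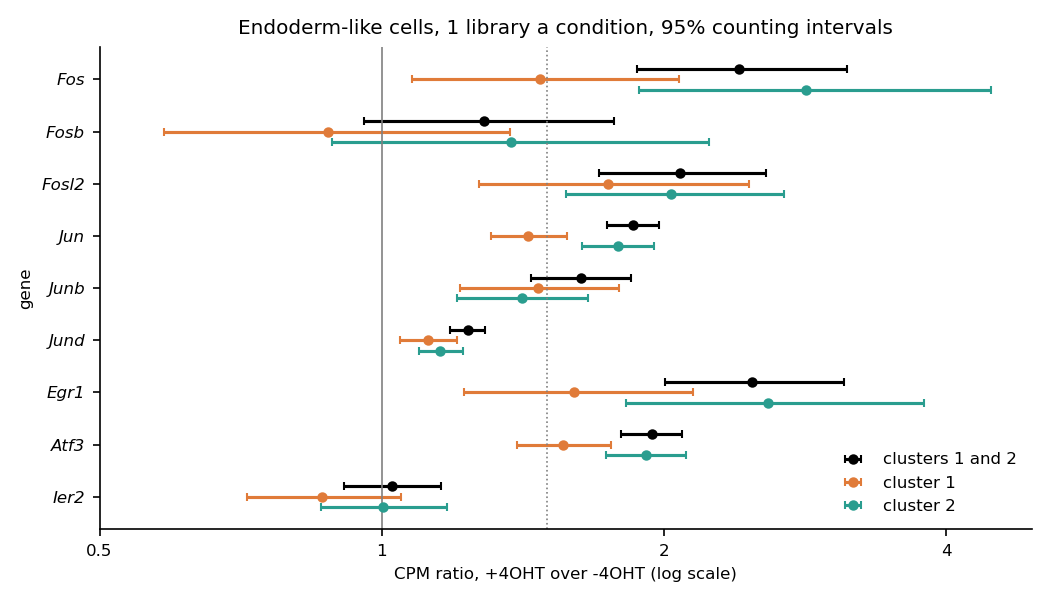
Ratios of CPM in +4OHT over -4OHT (log scale) for 9 genes in the endoderm-like class and in each of its clusters, with 95% counting intervals. The dotted line is 1.5, and within clusters the ratios of Jun, Atf3 and Fosl2 are 1.43 or higher.

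Depth and quality of the libraries are given beside this difference. Median depth in endoderm-like cells was 11962.5 UMIs in -4OHT and 12571 in +4OHT, and the median mitochondrial share 5.89% and 6.03%. Heat shock and dissociation genes summed to 15314 CPM in -4OHT and 14038 CPM in +4OHT, and the other immediate early genes to 1547 and 2300 CPM. Barcodes that failed the filters numbered 1630 in -4OHT and 1019 in +4OHT, with median mitochondrial shares of 29.8% and 13.7%. They held Jun at 56.3 CPM in -4OHT and 261 CPM in +4OHT, and their cell classes are not known. The part of library and handling in the 4OHT difference was not tested.

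The genes were spread unevenly over endoderm-like cells. In cluster 1 of +4OHT, the best filled, Jund was found in 80.9% of cells thinned to 5000 UMIs, Jun in 62.3%, Atf3 in 53.8%, Junb in 27.7%, Ier2 in 19.8%, Fosl2 in 14.4%, Egr1 in 13.7%, Fos in 9.77% and Fosb in 3.98%. Before thinning, the 10% of cells with the most UMIs of a gene held 73.4% of the Fos UMIs and 73.1% of those of Egr1, but 38.2% of those of Jun and 29.0% of those of Jund.
Within this cluster 1 of +4OHT, cells with a Fos UMI more often held other early genes. Among 361 such cells, 28.5% had an Egr1 UMI (exact binomial 95% interval 23.9 to 33.5), against 12.1% (10.9997 to 13.2) of 3334 cells without one. Jun was found in 75.6% against 60.9%, Junb in 37.7% against 26.6%, Ier2 in 27.1% against 19.02% and Fosb in 10.5% against 3.27%, each with intervals apart. Atf3 (52.6% against 53.9%), Jund (82.8% against 80.7%) and Fosl2 (17.7% against 14.0%) had intervals that overlapped. The sets had median depths of 10688 and 10617 UMIs and median mitochondrial shares of 6.12% and 6.15%. The cells come from 1 cluster of 1 library, so this describes co-detection there and is no test. In cluster 2 of +4OHT (2249 cells) it was weaker. Pearson correlations of thinned counts with Fos were 0.095 for Jun, 0.078 for Junb, 0.079 for Egr1, 0.159 for Fosb and -0.0001 for Ier2 there. In cluster 1 of +4OHT they were 0.291, 0.213, 0.164, 0.240 and 0.145. In clusters 1 to 5 of -4OHT, 2 to 19 cells a cluster held a Fos UMI after thinning to 5000 UMIs.

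**Figure D5:**
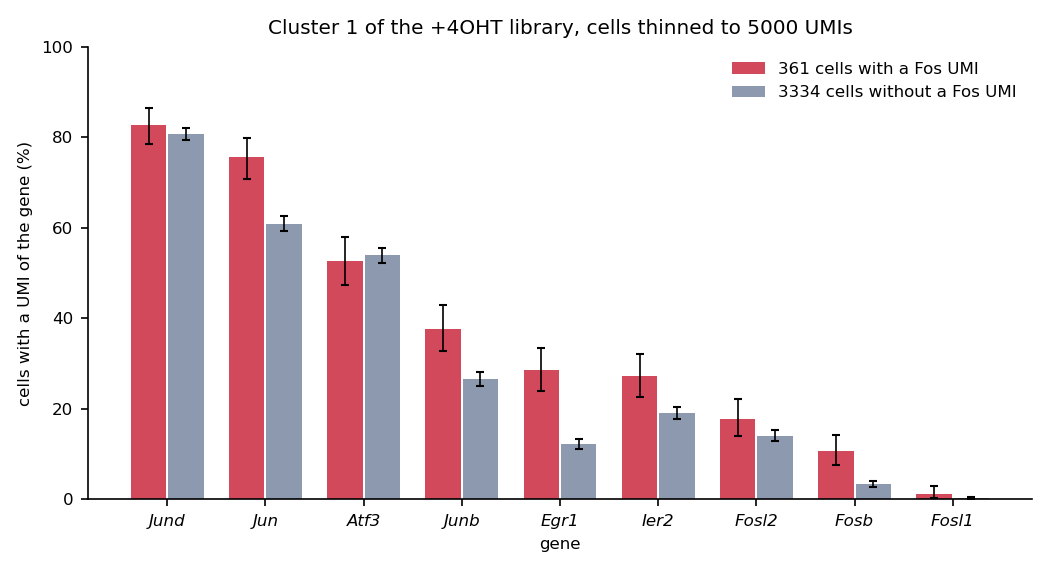
Share of cluster 1 cells of +4OHT with a UMI of each gene, for cells with and without a Fos UMI after thinning to 5000 UMIs, with exact binomial 95% intervals. Egr1, Jun, Junb, Ier2 and Fosb are more often found beside Fos, and the bars of Atf3, Jund and Fosl2 have overlapping intervals.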

How the data were processed

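Bulk values are read counts per gene symbol as deposited by the authors. Single-cell values are UMI counts deposited by the authors from Cell Ranger on mm10. For the bulk table, the aligner, annotation and strand setting were not given in the sources used here. Of the lines in the bulk table, 35 carried no gene name and no reads, and they were left out. Counts were tested with edgeR 4.0.16 (R 4.3.3): filterByExpr, TMM, 1 quasi-likelihood fit over the 9 libraries with group as the only term, Benjamini-Hochberg adjustment, and SE taken as the absolute log2 fold change over the square root of F. DESeq2 1.42.0, other filters, a replicate block and leaving out each library were alternatives. The code was tested on simulated data. Cells with at least 1500 genes, 3000 UMIs and at most 10% mitochondrial UMIs were kept, screened for doublets with Scrublet and clustered in scanpy 1.11.5 at resolution 0.3 without the 10 genes and the other immediate early, heat shock and stress response lists. Classes were named from marker lists by a rule chosen after the clusters were seen.

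Same-numbered DP and Pdgfra+ libraries deviated together from their group means (correlations of 0.271, 0.477 and 0.321 over genes), so these numbers were taken to pair the samples. The other group pairs did not meet that condition. Named genes are the 10 genes, up to 3 called genes with the largest absolute log2 fold change from each other list, and the 3 genes most like Fos, Jun and Egr1 after subtraction of group means, among genes of at least 10 CPM on average. The 10 genes and the other lists were chosen with earlier results of these data known.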

Additional observations from a re-analysis of the deposited data

Results flagged for a closer look

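In the trophectoderm-like cluster, Fos, Junb and Egr1 had +4OHT over -4OHT ratios below 1, the opposite side to the endoderm-like cells, and the difference between the classes was not tested. The ratio was 0.299 for Fos (95% counting interval 0.149 to 0.649, 31.9 CPM in -4OHT and 9.52 CPM in +4OHT), 0.332 for Junb (0.227 to 0.498) and 0.280 for Egr1 (0.165 to 0.498). The -4OHT side holds 26 cells and 11 Fos UMIs, against 201 cells in +4OHT. In the same cluster Ier2 had a ratio of 0.263 (0.187 to 0.374), against 1.02 in endoderm-like cells. The make-up of the cluster also moved between the libraries, with summed endoderm markers at 1295 CPM in -4OHT and 5932 CPM in +4OHT and epiblast markers at 1477 and 716 CPM, and its part in these ratios was not tested.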

How the results depend on the processing

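None of the 9 genes tested changed sign between Oct4+ and either other group in the alternatives that gave a value, 17 for each gene except Fosb (16 against Pdgfra+ and 14 against DP). Between DP and Pdgfra+ the sign changed for Egr1, Fos, Fosb, Ier2 and Junb in 1 to 3 alternatives, Fos turning to 0.17 and Fosb to 0.26 without Pdgfra+ replicate 2. Leaving out each library in turn gave 0 called genes between DP and Pdgfra+ in every fit, 7 to 10 between Oct4+ and Pdgfra+ and 6 to 9 between DP and Oct4+. In the same order, the shares of all genes called in these fits were 0.412% to 9.3%, 56.2% to 63.3% and 48.2% to 55.1%. Where few of all genes were called between DP and Pdgfra+, the 0 says little about these genes. With the replicate block on the 6 libraries, DP against Pdgfra+ gave 1 called gene in place of 0, Fosl2, where 20.2% of all genes were called. With the block on all 9 libraries, Egr1 was called between Oct4+ and Pdgfra+ (-1.15, edgeR adjusted p = 0.00301) and between DP and Oct4+ (1.32, edgeR adjusted p = 0.00195), although those numbers did not pair. In single cells, cluster 1 alone and cluster 2 alone, added after seeing the data, each gave 3 genes past 1.5-fold in place of 6, and adding cluster 5 gave 7. The shares of all genes past it were 7.67% in cluster 1 and 9.11% in cluster 2, against 9.33% in the endoderm-like class. With cluster 5 added, that share is not given here. Summing all barcodes of a library turned the Ier2 ratio from 1.02 to 0.533, a sum that takes in the epiblast-like cells of -4OHT. The stricter cell filter moved Fos to 8.29 and Egr1 to 7.71, ratios that rest on fewer -4OHT cells, and the cause was not tested. Low read counts limit Fosb and Fosl1 in Oct4+, and 1 library a condition limits every 4OHT comparison.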
